A study of Mus musculus with 15 samples.

Results

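The cytosolic ribosomal protein genes encode the proteins of the ribosomes that translate nuclear-encoded mRNA. They were taken by symbol from the RNA count files: every symbol made of Rpl or Rps, a number and at most 1 of the letters a, l or x, together with Rplp0, Rplp1, Rplp2 and Rpsa. This gave 78 of the 19069 genes in the files, 48 of the large and 30 of the small ribosomal subunit. Fusion genes and paralogs with other symbols fall outside the rule and are described further on. All samples were of NIH3T3, a long-established fibroblast line from mouse embryos. Untreated cells were compared with cells irradiated with UV-C (254 nm, 80 J/m2) and sampled 6 h later. Transcripts were measured by RNA-seq in 3 untreated and 3 UV libraries. Open chromatin (FAIRE, recovery of DNA that is poorly crosslinked to protein) and H3K27ac (lysine 27 acetylation on histone H3, found at active promoters) were measured in 2 samples per condition, with 1 input DNA sample. The irradiated cells were washed and re-fed with medium containing DMSO, and the labels do not say whether untreated cells were handled alike, so irradiation, re-feeding and DMSO cannot be told apart. All cells are of 1 line. The labels do not say that replicates came from separate cultures, and p-values then measure only the spread between these libraries. In bulk RNA, more RNA of a gene per cell and less of everything else cannot be told apart.

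A ribosome consists of a small subunit, which reads the mRNA, and a large subunit, which joins amino acids. Mammalian ribosomal protein mRNAs begin with an uninterrupted run of pyrimidines, the 5′ terminal oligopyrimidine (TOP) tract. Through it their translation follows the kinase complex mTORC1 and the RNA-binding protein LARP1. Translation itself is not measured by any of these assays.

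The tract is visible in the genomic sequence around many annotated start sites. RefSeq promoter entries (build GRCm38.p6, 250 bases before to 50 after the start) matched 59 of the 78 symbols. In the lines that follow, the 30 bases to either side are shown, centred on the RefSeq start, 5′ to 3′ on the gene's strand, and capitals mark the longest run of C and T that overlaps the 10 bases to either side of it. The first 5 are members with a long run, and among them Rpl7a and Rps10 had some of the smallest RNA differences. They do not stand for all members with such runs. Of those not shown, Rps12 and Rpl28 (runs of 11) had RNA log2 fold changes of 1.08 and 1.05, and Rps25 (run of 14) 0.92. Medians were 0.97 with a run of at least 8 and 0.99 without.
Rpl7a (chr2:26910777-26910836, plus strand): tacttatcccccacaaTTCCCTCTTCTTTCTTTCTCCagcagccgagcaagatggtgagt
Rpl27a (chr7:109519165-109519224, plus strand): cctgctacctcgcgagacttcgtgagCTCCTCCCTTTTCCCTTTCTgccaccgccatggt
Rps10 (chr17:27635215-27635274, minus strand): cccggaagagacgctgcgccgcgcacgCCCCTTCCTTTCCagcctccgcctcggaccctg
Rps6 (chr4:86857338-86857397, minus strand): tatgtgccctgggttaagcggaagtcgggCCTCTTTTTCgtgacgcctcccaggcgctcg
Rplp2 (chr7:141447621-141447680, plus strand): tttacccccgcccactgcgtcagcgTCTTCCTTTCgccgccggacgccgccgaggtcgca
The next 2 had only short runs near the annotated start and some of the largest RNA differences.
Rplp0 (chr5:115559437-115559496, plus strand): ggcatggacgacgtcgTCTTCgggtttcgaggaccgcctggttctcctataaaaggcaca
Rpsa (chr9:120127736-120127795, plus strand): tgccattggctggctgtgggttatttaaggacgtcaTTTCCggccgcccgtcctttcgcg
The last 6 are 2 pairs of paralogs and 2 members whose RNA or promoter values stand apart in the results, Rpl34 and Rpl3l.
Rps27 (chr3:90213619-90213678, minus strand): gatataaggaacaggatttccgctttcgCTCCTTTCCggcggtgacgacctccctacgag
Rps27l (chr9:66946056-66946115, plus strand): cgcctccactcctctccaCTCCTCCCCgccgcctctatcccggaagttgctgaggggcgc
Rpl39 (chrX:37085193-37085252, minus strand): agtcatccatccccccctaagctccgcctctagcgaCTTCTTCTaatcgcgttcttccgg
Rpl39l (chr16:10170198-10170257, plus strand): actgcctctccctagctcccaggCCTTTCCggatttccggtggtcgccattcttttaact
Rpl34 (chr3:130730308-130730367, minus strand): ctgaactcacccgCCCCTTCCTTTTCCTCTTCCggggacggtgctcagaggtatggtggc
Rpl3l (chr17:24727796-24727855, plus strand): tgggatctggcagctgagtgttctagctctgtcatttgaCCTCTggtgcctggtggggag

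The run was 21 bases in Rpl7a, 20 in Rpl27a and Rpl34, and 5 in Rplp0, Rpsa and Rpl3l. A run of at least 8 pyrimidines was present in 28 of the 59 members (47.5%), against 16.8% of the 11085 tested genes with an entry and 15.8% of all 27025 genes in the table. Annotated starts need not be the starts used in these cells, and a shorter run says only that these letters are not at the annotated start. Of the other short motifs searched on both strands of the 300-base windows, CCGGAAG, the core bound by ETS-family factors, was in 25 of 59 members (42.4%), 16.3% of tested genes and 9.93% of all. CTTTCC was in 54.2%, 30.7% and 29.3%, and AAGATGGC, which resembles YY1 sites, in 8.47%, 4.41% and 3.19%. The GC box GGGCGG was in 59.3%, 62.3% and 38.2%, and TATAAA in 10.2%, 10.3% and 15.7%. No pair of these motifs shares its whole sequence, but single matches may overlap. CCGGAAG is shown in capitals for members in which it lies near the start, in windows that end 30 bases after it.
Rpl31 (chr1:39367791-39367880, plus strand): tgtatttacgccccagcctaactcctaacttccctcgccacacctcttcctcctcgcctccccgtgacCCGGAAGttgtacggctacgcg
Rpl11 (chr4:136053364-136053453, minus strand): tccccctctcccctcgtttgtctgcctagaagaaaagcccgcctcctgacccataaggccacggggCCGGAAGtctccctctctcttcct
Rpl38 (chr11:114668520-114668609, plus strand): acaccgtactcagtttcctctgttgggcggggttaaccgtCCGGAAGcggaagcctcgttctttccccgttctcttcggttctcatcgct

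RNA of the ribosomal protein genes was about 2-fold higher in UV cells, and by nearly the same factor in almost every member. Of the 76 members with enough counts to test, 72 rose (94.7%), 43 of 46 in the large and 29 of 30 in the small subunit, by the quasi-likelihood test of edgeR (adjusted p below 0.05 over all 14925 tested genes). Over all tested genes 7.7% rose and 12.4% fell. No member fell (0 at an unadjusted p below 0.05, and 0 in DESeq2, which called 71 higher against 8.25% of all genes). Of those that rose, 35 did so at least 2-fold, against 1.81% of all genes. The median log2 fold change was 0.99 (quartiles 0.92 and 1.06), beside −0.01 over all tested genes (quartiles −0.34 and 0.30). In 74 of the 76 tested members every UV library lay above every untreated library in CPM (counts scaled to a common library size, with TMM factors), which held for 16.6% of all tested genes. The authors' deposited table of 2068 genes lists 72 members, all as higher, with log2 fold changes of 0.62 to 1.16. The authors' deposited table extends to an adjusted p of 0.0999, and 71 of the members in it are below 0.05, the exception being Rpl39l (0.0883). Of all genes in the files, 4.36% are listed as higher in the authors' deposited table.

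**Figure D1:**
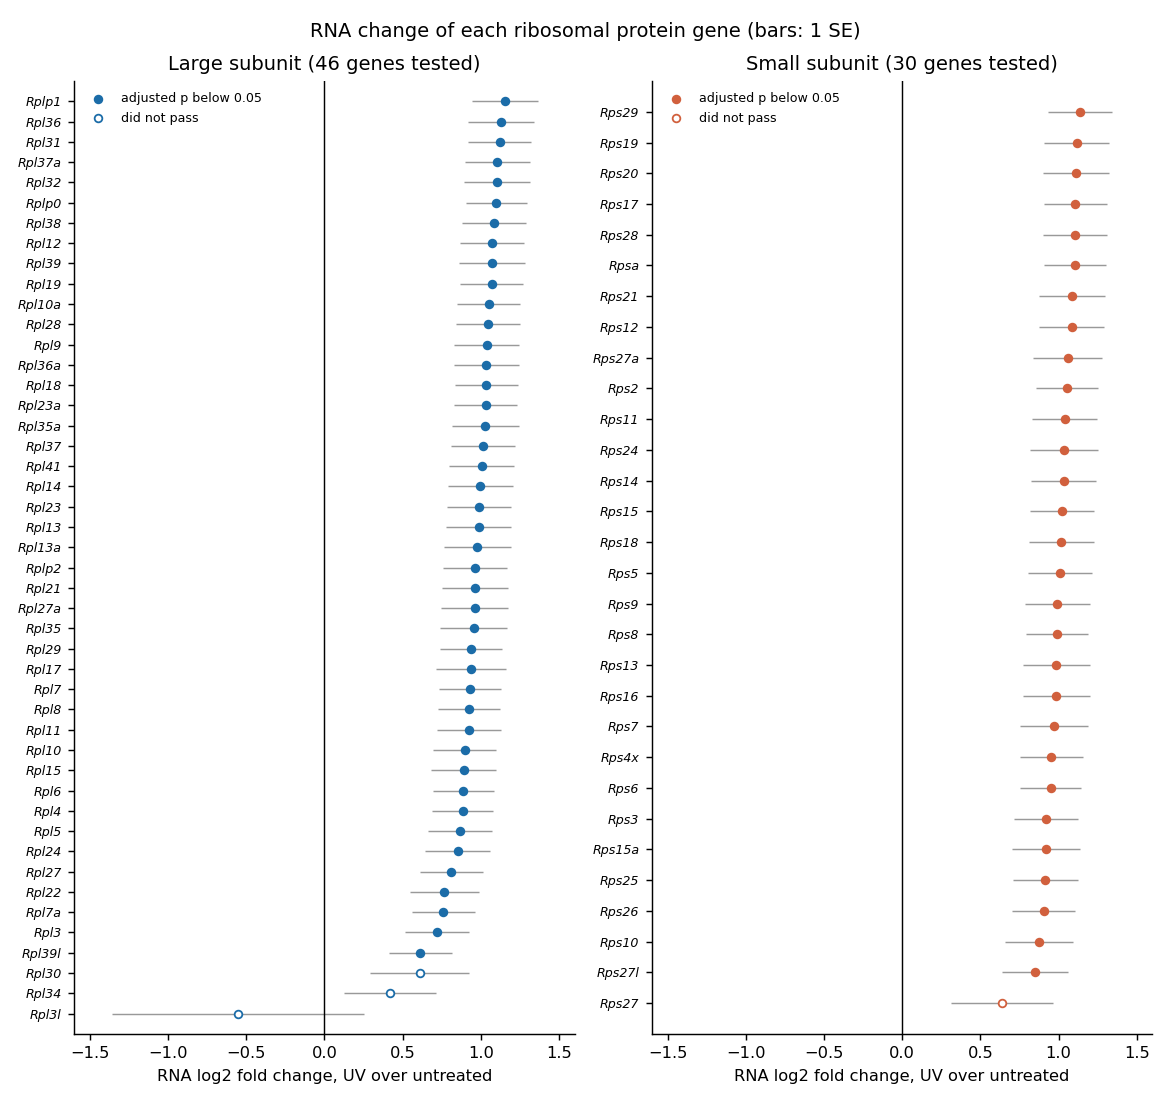
RNA log2 fold change (UV over untreated, horizontal axis) of each of the 46 large and 30 small subunit genes tested, with bars of 1 SE over 3 libraries per group. Filled points passed an adjusted p of 0.05. Most points lie close to 1, and the 4 open points are Rpl30, Rpl34, Rpl3l and Rps27.

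The libraries held 14211528 to 22032701 counts over genes. UV replicate 1 had 17607 genes with a count, against 18350 to 18787 in the others, and without it all 72 calls held. All 10 fibroblast markers checked were at 1 CPM or more in every library (summed 18638 to 24029 CPM in untreated and 23654 to 40770 in UV libraries). Marker sums of epithelial, endothelial, immune, muscle and germ line cells reached at most 13.7 CPM. The immune sum was 6.01 to 6.63 CPM in untreated and 12.1 to 13.7 in UV libraries. Of its 3 genes Cd68 was at 3.96 to 4.13 and 9.77 to 11.0 CPM, whereas Ptprc (at most 1.81 and 0.866 to 2.69) and Cd3e (0.546 to 0.829 and 0.309 to 1.28) overlapped between the groups, and their part in the results was not tested. Ribosomal protein genes have many near-identical processed copies in the mouse genome. How reads that match several places were counted is not given in the sources used here, which leaves each member's own counts uncertain.

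Members took 6.87%, 8.81% and 7.89% of all RNA counts in untreated replicates 1, 2 and 3, and 11.1%, 15.0% and 14.2% in UV replicates 1, 2 and 3. The groups do not overlap. The mean share was 7.86% ± 0.968 in untreated and 13.4% ± 2.08 in UV libraries (SD, n = 3 each), 1.71 times as high. Large subunit genes accounted for 4.57% ± 0.555 and 7.72% ± 1.19, and small subunit genes for 3.29% ± 0.413 and 5.72% ± 0.888. Shares are of library totals, whereas TMM scaling sets the bulk of genes near 0, and there the median fold was 1.99. With library totals alone, the median log2 fold change over all tested genes was −0.24 and that of the members 0.77, and 70 members rose against 6.06% of all genes.

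**Figure D2:**
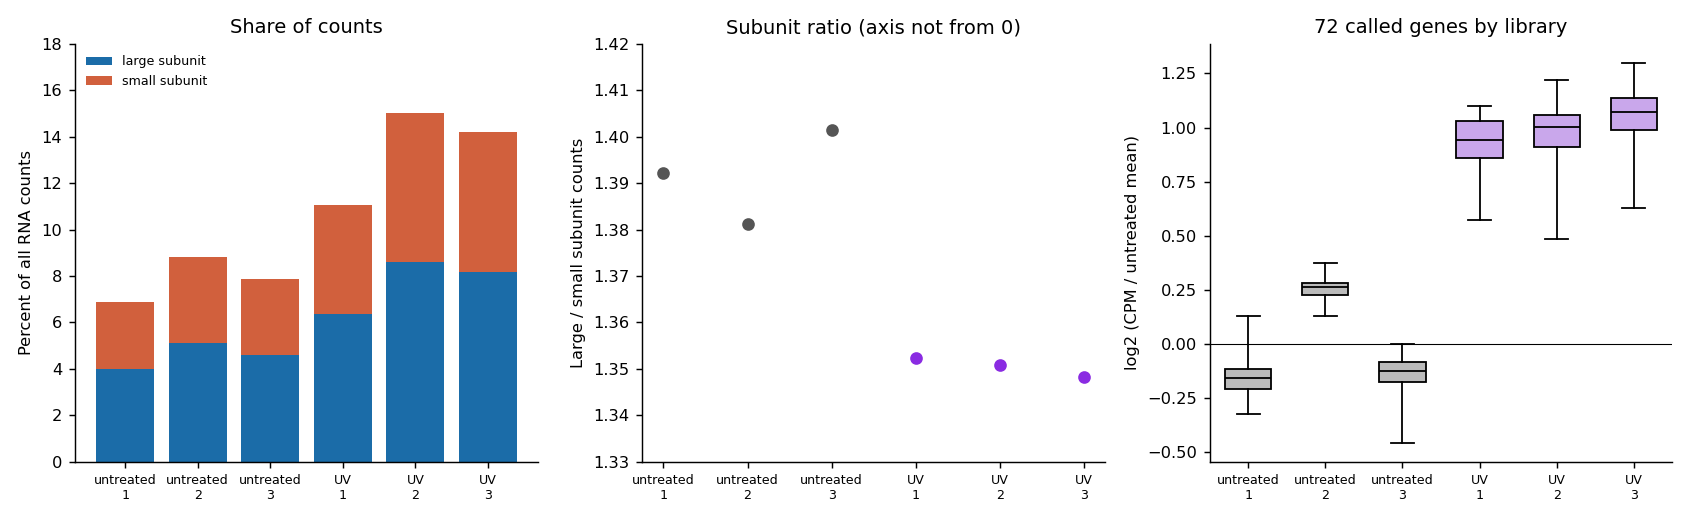
Per library: percent of RNA counts on large and small subunit genes (stacked bars), the ratio of large to small subunit counts (points, axis not starting at 0), and the 72 members that rose as log2 of CPM over their untreated mean (box: quartiles and median, whiskers: lowest and highest). Untreated replicate 2 is the highest of its group, and the ratio lies between 1.38 and 1.40 in untreated and at 1.35 in UV libraries.

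The members also moved together within a group. Untreated replicate 2 was the highest untreated library in all 72 members that rose. In TMM-scaled CPM, their median coefficient of variation (SD over mean) was 17.7% in untreated and 5.43% in UV libraries, and it was larger in untreated cells in all 72. Over all tested genes the medians were 16.1% and 20.9%, so here the order was the opposite. The order in the members depends on the scaling. Their summed share of library totals was 7.86% ± 0.968 in untreated and 13.4% ± 2.08 in UV libraries (SD). Relative to the mean, that SD was larger in UV libraries. Without untreated replicate 2 the median log2 fold change of the members was 1.28. In CPM, UV replicate 3 was the highest UV library in 58 of the 72, whereas the members' share of library totals was highest in UV replicate 2 (15.0%). Without UV replicate 3, 57 members rose, against 3.75% of all genes. The 15 that then missed the threshold were Rpl3, Rpl4, Rpl5, Rpl7a, Rpl10, Rpl15, Rpl22, Rpl24, Rpl27, Rpl27a, Rpl39l, Rps10, Rps15a, Rps25 and Rps26.

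The stalk of the large subunit, which recruits the GTPases that drive elongation, is built from Rplp0, Rplp1 and Rplp2. Rplp0 was at 2715, 3774 and 3012 CPM in untreated and 6462, 6940 and 6965 CPM in UV libraries, so the lowest UV library lay far above the highest untreated one. Its log2 fold change was 1.10 ± 0.20 (SE, edgeR adjusted p = 0.000584). Rplp1 had the highest value of all members, 1.15 ± 0.21 (edgeR adjusted p = 0.000799), from 1123, 1694 and 1408 to 2713, 3229 and 3465 CPM. Rplp2 was at 321, 397 and 330 CPM in untreated and 642, 708 and 693 CPM in UV libraries, a log2 fold change of 0.96 ± 0.20. All 3 stalk genes were free of overlap between the groups.

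Rpl5 and Rpl11 form a particle with the smallest ribosomal RNA, and when ribosome assembly fails this particle binds the p53 regulator MDM2. Rpl5 was at 1568, 1999 and 1385 CPM in untreated and 2927, 2910 and 3186 CPM in UV libraries, a log2 fold change of 0.87 ± 0.20 (edgeR adjusted p = 0.00525). Without UV replicate 3 it was 0.82 (edgeR adjusted p = 0.0672). Rpl11 rose from 608, 808 and 626 to 1238, 1282 and 1349 CPM (0.92 ± 0.21). Both thus lay slightly below the members' median of 0.99, by less than their SE.

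The other large subunit genes with the highest values were Rpl36 and Rpl31. Rpl36 was at 260, 371 and 291 CPM in untreated and 651, 717 and 647 CPM in UV libraries (log2 fold change 1.13 ± 0.21). Rpl31, which lies near the exit of the peptide tunnel, was at 697, 891 and 701 and at 1623, 1626 and 1726 CPM (1.12 ± 0.20). The UV libraries of both genes lie close together compared with the gap to the untreated ones. The lowest among those that rose were Rpl39l, Rpl3 and Rpl7a. Rpl3, whose protein reaches towards the peptidyl transferase centre, was at 1867, 2658 and 2146 CPM in untreated and 3317, 3616 and 4072 CPM in UV libraries (0.72 ± 0.20, edgeR adjusted p = 0.017). Rpl7a was at 1276, 1671 and 1300 and at 2382, 2309 and 2503 CPM (0.76 ± 0.20, edgeR adjusted p = 0.011). Without UV replicate 3 the edgeR adjusted p was 0.202 for Rpl3 and 0.128 for Rpl7a, and without a low-count filter it was 0.134 and 0.0905. Scaled by library totals, Rpl3 was at 0.50 (edgeR adjusted p = 0.0656).

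In the small subunit the highest values were those of Rps29, Rps19 and Rps20. Rps29, in the head of the subunit, was at 463, 620 and 520 CPM in untreated and 1139, 1118 and 1267 CPM in UV libraries (log2 fold change 1.14 ± 0.21). Rps19, whose loss of function causes Diamond-Blackfan anaemia, rose from 613, 859 and 669 to 1528, 1513 and 1602 CPM (1.12 ± 0.21). Rps20 rose from 877, 1231 and 964 to 1962, 2242 and 2435 CPM (1.11 ± 0.21). In each of the 3 the lowest UV library exceeded the highest untreated one. Rpsa, which encodes the protein also known as the laminin receptor, was at 1811, 2462 and 2003 and at 4446, 4352 and 4680 CPM (1.10 ± 0.20, edgeR adjusted p = 0.000623).

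Rps6 is the ribosomal protein phosphorylated by the S6 kinases downstream of mTORC1. It was at 2637, 3410 and 2595 CPM in untreated and 5322, 5521 and 5842 CPM in UV libraries (0.95 ± 0.20, edgeR adjusted p = 0.00191). Rps27a, made as a fusion with ubiquitin, was at 502, 696 and 426 and at 1093, 1131 and 1161 CPM (1.06 ± 0.22). With the TMM scaling of these CPM, the UV libraries of both genes lay within a narrower range than the untreated ones. The lowest small subunit genes that rose were Rps27l, Rps10 and Rps26. Rps10, a target of ubiquitination on stalled ribosomes, was at 535, 808 and 611 and at 1049, 1268 and 1263 CPM (0.87 ± 0.22). Rps26, which lies at the mRNA exit channel, was at 419, 548 and 455 and at 879, 867 and 915 CPM (0.90 ± 0.20). Without UV replicate 3 neither passed (edgeR adjusted p = 0.0725 for Rps10 and 0.0502 for Rps26).

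The members whose symbols end in l are paralogs with restricted or inducible expression. Rps27l, a paralog of Rps27 and known as a target of p53, was at 89.3, 99.9 and 60.6 CPM in untreated and 168, 134 and 147 CPM in UV libraries (0.85 ± 0.21, edgeR adjusted p = 0.00758). Its value lay below the members' median, by less than its SE. Rpl39l, a paralog of Rpl39 best known from testis, was at 131, 133 and 95.7 and at 198, 168 and 185 CPM. Its log2 fold change of 0.61 ± 0.20 (edgeR adjusted p = 0.0381) was the lowest among the members that rose. The call was lost with DESeq2 (adjusted p = 0.0529), with DESeq2's size factors in edgeR (adjusted p = 0.0518), without a low-count filter (edgeR adjusted p = 0.11) and without UV replicate 3 (edgeR adjusted p = 0.214). Rpl3l, the striated muscle paralog of Rpl3, had 23, 12 and 41 raw counts in untreated and 0, 19 and 17 in UV libraries. Its groups overlap, and its fitted value of −0.55 ± 0.81 did not pass (edgeR adjusted p = 0.81). Rpl10l, a testis paralog of Rpl10, had 1 to 6 counts per library and was not tested.

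A further 4 members had few or no counts in the files. Rpl30 had 63, 62 and 71 raw counts in untreated and 97, 55 and 64 in UV libraries, Rpl34 80, 73 and 83 against 98, 66 and 64, and Rps27 45, 58 and 61 against 65, 48 and 71. As CPM, Rpl30 was at 3.27, 2.82 and 2.72 against 6.00, 3.70 and 3.71, and its log2 fold change of 0.61 ± 0.31 did not pass (edgeR adjusted p = 0.21). Rpl34 was at 0.42 ± 0.29 (edgeR adjusted p = 0.41) and Rps27 at 0.64 ± 0.33 (edgeR adjusted p = 0.205). In CPM the UV libraries of Rpl30 and Rps27 still lay above the untreated ones, and those of Rpl34 overlapped. Rpl26, which binds p53 mRNA and raises its translation after DNA damage, had 0 to 2 counts per library and was not tested. The 72 members above 50 CPM in untreated cells had at least 1582 counts in every library. The promoters of these 4 genes nevertheless held 256 to 733 H3K27ac reads in untreated cells, within the range of other members (median 381). Whether the low counts reflect little RNA or reads assigned elsewhere was not tested.

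The subunits had close medians. The median log2 fold change was 0.97 over 46 large and 1.01 over 30 small subunit genes. The ratio of summed large to summed small subunit counts was 1.39, 1.38 and 1.40 in untreated and 1.35, 1.35 and 1.35 in UV libraries. These ranges do not overlap, and the difference of the means was −0.041. In percentage points of all ribosomal protein counts Rpl3 differed most, with 2.88%, 3.06% and 3.22% in untreated and 2.40%, 2.52% and 2.66% in UV libraries. Rpl39l differed more relative to its own share, which was 0.203%, 0.153% and 0.144% in untreated and 0.143%, 0.117% and 0.121% in UV libraries. Without Rpl3, a choice made after its values were seen, the ratio was 1.32, 1.31 and 1.32 in untreated and 1.30, 1.29 and 1.29 in UV libraries. The groups still did not overlap, and the difference was −0.027.

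To ask which members departed from the common change, the libraries were also scaled by their summed ribosomal protein counts, a fit chosen after the data were seen. On this scale the median of all tested genes was −1.04, and 0.362% rose and 58.4% fell. None of the 76 members was called in edgeR, and 0 had an unadjusted p below 0.05. Values of the 72 members above 50 CPM ran from −0.39 (Rpl39l) to 0.16 (Rplp1). Rpl3 had the smallest edgeR adjusted p (0.0927), at −0.27 ± 0.13. Without UV replicate 1, Rpl39l fell on this scale (edgeR adjusted p = 0.025). Missing the threshold does not show that the members changed equally, as the scaling itself is made from them.

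Further ribosomal protein genes and other genes whose mRNAs carry the TOP tract rose in part. Of 9 tested paralogs and fusion genes outside the rule, 4 rose (44.4%, against 7.7% of all tested genes) and 0 fell in edgeR (0 at an unadjusted p below 0.05, and 0 in DESeq2), with a median of 0.57. Fau, a ubiquitin-like fusion with a small subunit protein, was at 507, 733 and 614 CPM in untreated and 1335, 1314 and 1358 CPM in UV libraries, with no overlap (log2 fold change 1.11 ± 0.21). Gnb2l1, the scaffold protein RACK1 on the small subunit, was at 0.88 ± 0.20, and Rpl36al, a paralog of Rpl36a, at 0.85 ± 0.20. Without UV replicate 3 the number that rose was 2 (3.75% of all genes), and neither Gnb2l1 (edgeR adjusted p = 0.0511) nor Rpl36al (edgeR adjusted p = 0.0717) passed.

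Of 34 other tested TOP mRNA genes, mostly translation factors and including Fau and Gnb2l1, 16 rose and 0 fell in edgeR (0 at an unadjusted p below 0.05, and 0 in DESeq2), with a median of 0.53. Eef1b2, an elongation factor subunit, was at 1141, 1497 and 1040 CPM in untreated and 2453, 2466 and 2740 CPM in UV libraries (1.06 ± 0.21, edgeR adjusted p = 0.00131). The number that rose was 4 without UV replicate 3 (3.75% of all genes) and 8 without a low-count filter (791 of all 18869 genes). Without UV replicate 1, 1 fell (2849 of all 15589 genes). Thus 47.1% of this list rose, against 94.7% of the ribosomal protein genes and 7.7% of all tested genes.

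**Figure D3:**
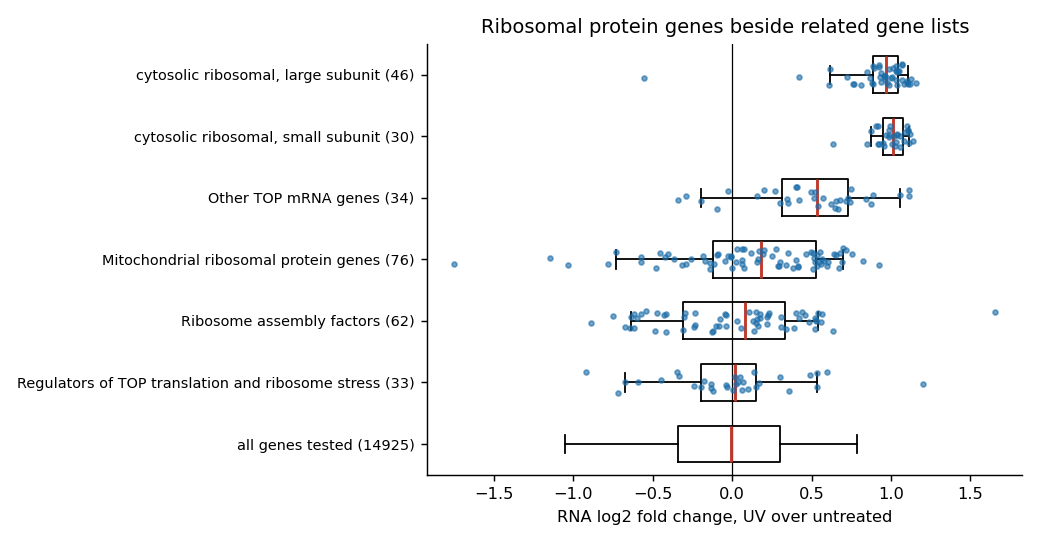
RNA log2 fold change (UV over untreated, horizontal axis) of the ribosomal protein genes by subunit and of 4 related lists, 1 point per gene, with boxes for quartiles and median and whiskers from percentile 5 to percentile 95 (no points for all tested genes). Both subunits are narrow and near 1, the median of other TOP mRNA genes is 0.53, and the medians of the other lists are 0.18 or less.

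Genes that assemble or regulate ribosomes had medians near 0. Of 62 assembly factors 2 rose (3.23%) and 8 fell (12.9%), with a median of 0.08. Over all tested genes 7.7% rose and 12.4% fell, so the share that fell is near the background. Nip7, a large subunit assembly factor, was at 99.7, 97.9 and 81.6 CPM in untreated and 387, 235 and 258 CPM in UV libraries (log2 fold change 1.66 ± 0.23). The nucleolar GTPase gene Gnl3 fell by 0.89 ± 0.21 on the log2 scale, from 110, 106 and 86.7 to 71.0, 39.3 and 52.9 CPM. Wdr43 and Imp3, of the small subunit processome, were at −0.75 ± 0.21 and −0.64 ± 0.18. Neither held in every fit that left out a library. Wdr43 missed the threshold without untreated replicate 2 or UV replicate 3, and Imp3 without untreated replicate 1 or 2 or UV replicate 2 or 3. Leaving out single libraries gave 1 to 12 that rose and 1 to 18 that fell, and each of the 6 libraries moved at least 1 of these counts by more than 1.5 times. The highest counts came without untreated replicate 1 (12 rose) and without UV replicate 1 (18 fell). Over all tested genes 1796 of 15604 rose without untreated replicate 1, and 2849 of 15589 fell without UV replicate 1.

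Of 33 regulators of TOP translation and of the response to stalled ribosomes, 2 rose (6.06%) and 4 fell (12.1%), with a median of 0.02. Both shares are near the 7.7% and 12.4% of all tested genes. Rps6ka3, a kinase that phosphorylates Rps6, was at 7.88, 7.01 and 7.85 CPM in untreated and 19.3, 15.4 and 17.5 CPM in UV libraries (1.20 ± 0.18). Eif2ak4, the kinase GCN2, fell from 99.6, 116 and 105 to 67.6, 49.0 and 52.9 CPM (−0.92 ± 0.19). The cap-binding factor gene Eif4e (−0.72 ± 0.21) and the ribosome rescue factor gene Pelo (−0.67 ± 0.21) also passed. Eif4e did not pass without untreated replicate 1 or 2 or UV replicate 2 or 3, and Pelo did not without untreated replicate 2 or 3 or UV replicate 2 or 3. Without single libraries 1 to 5 rose and 1 to 8 fell, with the highest numbers without untreated replicate 1 and without UV replicate 1, and here too each library moved a count by more than 1.5 times. The counts over all tested genes in these 2 fits are those given with the assembly factors.

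The 76 mitochondrial ribosomal protein genes, whose products serve the ribosomes of mitochondria, spread in both directions. Of these, 23 rose (30.3%, against 7.7% of all tested genes) and 6 fell (7.89%, against 12.4%), with a median of 0.18. Mrpl23 rose from 15.5, 18.2 and 14.5 to 30.4, 29.4 and 31.9 CPM (0.93 ± 0.17). Mrpl44, Mrpl46 and Mrpl22 fell, with log2 fold changes of −1.75 ± 0.19, −1.15 ± 0.20 and −1.04 ± 0.20. The groups of Mrpl44 lie far apart, at 23.8, 32.8 and 23.8 CPM in untreated and 8.29, 7.34 and 8.28 in UV libraries. Without UV replicate 3, 4 rose, against 3.75% of all genes, and 3 fell, against 1139 of all 15581 genes. Without UV replicate 1, 12 fell, against 2849 of all 15589 genes.

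Promoter values come from windows of 1000 bases, 1 per gene, in which the 2 samples of a condition were pooled by the authors. Their spread between replicates is therefore unknown and nothing was tested, and the tables give no coordinates for the windows. The authors' log2 enrichment compares reads with scaled input reads. Differences are UV minus untreated on this log2 scale, and those of 1 or more in either direction are called gains and losses. All 78 members had a window, with a median of 381 H3K27ac reads in untreated and 413.5 in UV cells, and 95.5 and 55 FAIRE reads.

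Promoters of the ribosomal protein genes were strongly acetylated before irradiation, and their acetylation differed little after it. Their median H3K27ac log2 enrichment was 3.41 in untreated and 3.44 in UV cells, against 2.37 and 2.19 over promoters of all tested genes. The median difference was 0.20 (quartiles −0.10 and 0.40), with −0.06 over all promoters and 0.13 over the upper 50% by enrichment, which held 67 of the members. The difference was above 0 in 52 members (66.7%), against 43.8% of all, and below 0 in 26, against 55.7%. A gain occurred in 1 member, against 2.93% of all, and a loss in 3, against 4.26%. Members held 0.819% of all H3K27ac promoter reads in untreated cells (95% Wilson interval 0.810% to 0.827%) and 0.816% in UV cells (0.808% to 0.824%), and 0.416% of input reads. Such intervals cover counting error only. Large and small subunit genes had median differences of 0.16 and 0.26. The size of the members' median depends on the scaling: it was 0.07 with quantile normalization, and 0.07 with reads scaled by pool totals and no input, where that of all promoters was −0.21.

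**Figure D4:**
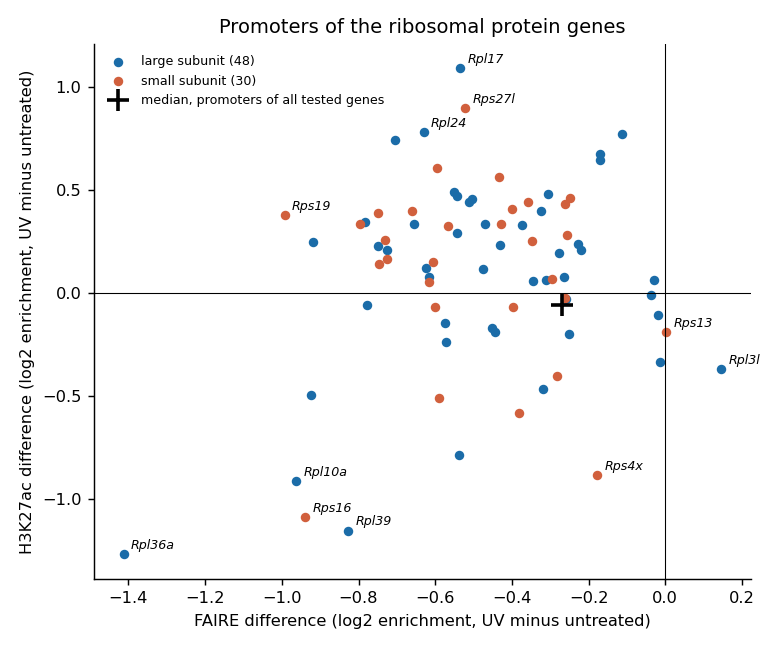
FAIRE difference (horizontal axis) against H3K27ac difference (vertical axis), both as UV minus untreated log2 enrichment from pooled samples, for the promoters of the 78 members, with subunits in colour and a cross at the median of all tested genes' promoters. Members spread from −1.27 to 1.09 in H3K27ac, and 76 of 78 lie below 0 in FAIRE.

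Single promoters spread much more in H3K27ac than the members did in RNA, but not more than promoters in general. The quartiles were −0.10 and 0.40 in members and −0.37 and 0.27 over promoters of all tested genes. Rpl17, whose protein lies at the peptide tunnel exit, had 115 H3K27ac reads in untreated and 264 in UV cells (difference 1.09). Scaled by the pools' totals, the read ratio was 2.07 (95% exact conditional interval 1.66 to 2.60). Rps27l had 444 and 844 reads (difference 0.90, ratio 1.72, interval 1.53 to 1.93). Rpl24, a protein of a bridge between the subunits, had 79 and 148 reads (0.78). These 3 are the highest. Their RNA log2 fold changes of 0.94, 0.85 and 0.85 lay below the members' median of 0.99, each by less than its SE.

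The lowest were Rpl36a, Rpl39 and Rps16. Rpl36a had 212 reads in untreated and 79 in UV cells (difference −1.27, ratio 0.336, interval 0.256 to 0.438). Rpl39, which lines the peptide tunnel, had 283 and 119 reads (−1.15), and Rps16 had 656 and 302 (−1.09). Their RNA nevertheless rose with the rest. Rpl36a was at 528, 703 and 549 CPM in untreated and 1096, 1233 and 1318 CPM in UV libraries (log2 fold change 1.04 ± 0.21), Rpl39 was at 1.07 ± 0.21 and Rps16 at 0.99 ± 0.21. The interval of the read ratio lay above 1 in 23 members, against 19.6% of all promoters of tested genes, and below 1 in 20, against 31.9%.

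FAIRE enrichment was lower after UV at nearly all these promoters and at most others. The median difference was −0.47 (quartiles −0.63 and −0.28), beside −0.27 over all promoters of tested genes and −0.45 over the upper 50% by enrichment, which held 71 members. It was below 0 in 76 members (97.4%), against 76.7% of all, a loss occurred in 1, against 1.39%, and a gain in 0, against 0.0067%. With a smaller threshold of 0.58, 8 members gained H3K27ac (10.9% of all promoters) and 7 lost it (14.5%), while 0 gained FAIRE (0.596%) and 27 lost it (18.6%). The size depends on the scaling, and the input scale set by the authors differs between the pools (0.657 for untreated and 0.528 for UV). With reads scaled by pool totals and no input, the members' median was −0.09 and that of all promoters 0.06, with 31 members above 0 (55.1% of all promoters) and 47 below (44.9%). With quantile normalization it was −0.04. Members held 0.765% of FAIRE promoter reads in untreated (95% Wilson interval 0.749% to 0.782%) and 0.704% in UV cells (0.684% to 0.725%). The FAIRE pools had 1032412 and 637080 promoter reads.

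The lowest FAIRE differences were at Rpl36a, Rps19 and Rpl10a. Rpl36a had 64 reads in untreated and 12 in UV cells (−1.41, read ratio 0.304, interval 0.149 to 0.568), and it was the lowest in both assays. Rps19 had 268 and 111 reads (−0.99, ratio 0.671, interval 0.533 to 0.840), whereas its H3K27ac difference was 0.38. Rpl10a, at the mobile stalk beside the tRNA exit, had 190 and 75 reads (−0.96, ratio 0.640), with an H3K27ac difference of −0.91. The highest differences were those of Rpl3l (0.15), Rps13 (0.00) and Rpl37a (−0.02). The Rpl3l window, with 11 H3K27ac and 19 FAIRE reads in untreated cells, had little signal over input in either assay. The read ratio interval lay above 1 in 2 members, against 5.19% of all promoters, and below 1 in 7, against 5.49%. Scaled by pool totals, the FAIRE differences of the other members were thus not detectable at this depth.

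Across members the RNA and promoter differences showed little relation. Pearson's r between the RNA log2 fold change and the H3K27ac difference was 0.04 (Spearman's rho 0.00, n = 76 genes), and with the FAIRE difference −0.20 (rho −0.04). Among the 72 members above 50 CPM the values were −0.13 and −0.03. Over all 14925 tested genes r was 0.09 with H3K27ac and 0.07 with FAIRE. These are descriptions over genes that share libraries and pools. The members' RNA log2 fold changes had an SD of 0.22, about the SE of those that rose (0.20 to 0.22). With so little RNA difference between members, an r near 0 cannot tell whether RNA and promoter differences are related. Among the 72 members that rose, the H3K27ac difference ran from −1.27 to 1.09. H3K27ac and FAIRE differences had an r of 0.17 and a rho of 0.00 over the 78 members, and 52 members had H3K27ac above and FAIRE below 0 (35% of all promoters), while 24 had both below 0 (41.7% of all).

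**Figure D5:**
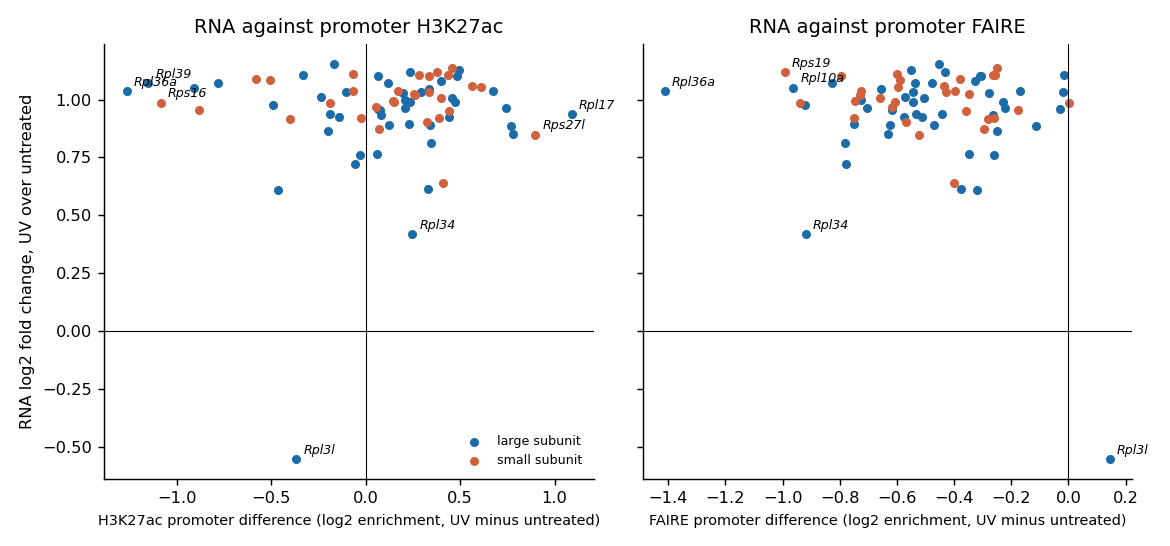
RNA log2 fold change (vertical axis, UV over untreated) against the promoter difference in H3K27ac (left) and FAIRE (right), as UV minus untreated log2 enrichment, for the 76 members tested in RNA. Most members lie in a flat band near 1 over the whole width of both axes, and Rpl3l, with few counts, lies below 0.

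Members with and without the sequence features shown at the outset had close RNA medians. The 28 members with a start-site run of at least 8 pyrimidines had a median RNA log2 fold change of 0.97, and the 29 tested members with an entry and no such run 0.99. Rpl7a, with the run of 21 bases printed above, was at 0.76, and Rplp0 and Rpsa, with runs of 5, were at 1.10. Members counted as without a run may carry the tract at a start other than the annotated one. The split therefore cannot say how the tract relates to the RNA difference. For CCGGAAG the medians were 0.96 with and 0.99 without the motif, and the H3K27ac medians were 0.25 and 0.10.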

How the data were processed

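RNA was analysed from raw read counts per gene that the authors deposited for 6 libraries. The promoter tables, per the file headers, hold read counts per window for pooled samples and input, and log2 enrichment values. The latter were checked by recomputing them from reads and scaled input, with 16 added to each, as the log2 of their ratio. The log2 fold changes and adjusted p-values of the authors' deposited table were only set beside the fit made here. Bowtie 0.12.9, TopHat, MACS2, DESeq2 and the build mm9 are named in the submitters' processing notes, with no roles stated there. Columns with DMSO in the header were taken as irradiated, from the labels' protocol. Not used were 4 columns with values per condition, and the peak lists.

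Counts were fitted in R 4.3.3 with edgeR 4.0.16 (filterByExpr, TMM, glmQLFit, glmQLFTest) over all 6 libraries, without covariates, with Benjamini-Hochberg adjustment over 14925 genes and a threshold of 0.05. SE is the log2 fold change divided by the square root of F. CPM used TMM-scaled library sizes. The code was tested on simulated data. There it recovered 40 of 78 genes with a log2 change of 1 (51.3%) and 99 of 108 with a change of 2 (91.7%). Genes with changes of about 2-fold or less can thus be missed. Alternatives were DESeq2 1.42.0, its size factors, library totals, TMM without the members, other low-count filters, a replicate block, each library left out, and for promoters other scalings and thresholds. Those chosen after the data were seen are scaling by the ribosomal protein sum, the upper 50% of promoters, and the subunit ratio without Rpl3. Promoter values, motifs and figures were computed in Python 3.11.15 with pandas 2.3.3, numpy 2.4.6, scipy 1.17.1 and matplotlib 3.10.9.

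Members and gene lists were chosen with earlier results of these data known. Genes were named by rule: the stalk genes, Rpsa, Rpl5, Rpl11, Rps6, Rps27a, symbols ending in l, members not tested or not passing, the 3 highest and 3 lowest of each subunit, the 3 highest and 3 lowest promoter differences, and up to 4 genes per list by smallest p. Naming by level per kb of coding length was not done, as no lengths were used. Named outside the rule, after their values were seen, are Rpl38, Rpl27a, the X-linked Rps4x and Rpl10, the members that missed the threshold without UV replicate 3, and the immune markers. Symbols found only in the promoter tables were not analysed here, and not every gene the naming rule picks is reported.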

Additional observations from a re-analysis of the deposited data

How the results depend on the processing

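Of the members that rose, 57 to 72 did so when single libraries were left out, and none fell. The median log2 fold change was then 0.96 to 1.28 (large subunit 0.93 to 1.27, small 0.97 to 1.30). With library totals it was 0.77 (0.76 and 0.79). The share of counts differed by 4.80 to 6.76 percentage points and the subunit ratio by −0.046 to −0.036, and by −0.027 without Rpl3. A 2-fold minimum left 35 members. DESeq2 called 71 and no low-count filter 68. Against the ribosomal protein sum, 0 to 1 members fell when libraries were left out.

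Whether replicate numbers pair the libraries is not known. Deviations of same-numbered libraries from their group means correlated at 0.16, −0.58 and 0.50, and not every library correlated best with its own number. With 3 libraries per group such deviations are not independent, so these values cannot settle it. With the replicate number as a block 72 members rose, at a median of 1.00, and no call of a member changed. In that fit 4 assembly factors rose, against 1276 of all 14925 genes.

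List counts moved more. Counts over all tested genes moved too: without single libraries 585 to 1941 rose and 1139 to 2849 fell, of 14917 to 15604 genes. Numbers that rose without single libraries were 2 to 5 paralogs and fusions, 4 to 20 other TOP genes, 1 to 12 assembly factors, 1 to 5 regulators and 4 to 32 mitochondrial genes. Numbers that fell were 0 to 1 TOP genes, 1 to 18 assembly factors, 1 to 8 regulators and 3 to 12 mitochondrial genes. With library totals 1 paralog or fusion, 2 TOP genes, 24 assembly factors, 10 regulators and 21 mitochondrial genes fell, and 14 mitochondrial genes rose. Of all 14925 tested genes 3739 then fell and 905 rose. With DESeq2's size factors 1 assembly factor, 1 regulator and 15 mitochondrial genes rose (1090 of all 14925 genes). In DESeq2 1, 1 and 10 rose, and 2 assembly factors and 2 regulators fell. Over the 11189 genes with an adjusted p in DESeq2, 923 rose and 1403 fell. Without a low-count filter 8 TOP genes, 1 assembly factor, 1 regulator and 9 mitochondrial genes rose, and 3 assembly factors and 2 regulators fell. Of all 18869 genes 791 then rose and 1508 fell. With at least 1 CPM in 3 libraries 7 assembly factors and 5 regulators rose (1590 of all 13053 genes). The causes were not tested.

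At a promoter threshold of 0.58, 8 members gained and 7 lost H3K27ac and 27 lost FAIRE. The members' median FAIRE difference was −0.20 after centring, −0.040 with quantile normalization, −0.091 from reads without input and −0.022 relative to the upper 50% of promoters, and the H3K27ac median stayed between 0.07 and 0.26. Runs of at least 5 pyrimidines were in 76.3% of members. Pooled promoter tables give counting error only, and FAIRE windows held few reads.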

Other observations

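The 4 members on the X chromosome were picked out after their values were seen. In promoter acetylation 3 of them were among the lowest members, and Rpl10 was near the members' median of 0.20. Rpl36a and Rpl39 had H3K27ac differences of −1.27 and −1.15, Rps4x, the X-linked copy of a small subunit gene, had 550 reads in untreated and 292 in UV cells (difference −0.88), and Rpl10 had 472 and 558 (0.23). The median over 358 X-linked promoters of tested genes was −0.02. Their RNA rose alike, with log2 fold changes of 1.04 (Rpl36a), 1.07 (Rpl39), 0.95 (Rps4x) and 0.90 (Rpl10). No test was made on these pooled promoter values.

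Members with more FAIRE enrichment in untreated cells had lower FAIRE differences (Pearson's r −0.52, rho −0.48, n = 78 genes). The untreated value enters both measures. The same relation in H3K27ac had an r of −0.09.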
